A study of Homo sapiens with 4 samples.

Results

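TTC39A and PYROXD2 are 2 of the 19238 genes in a table of unique molecular identifier (UMI) counts from single melanoma cells. They were picked from this table because both had few UMIs in 1 of its 4 sets of cells and intermediate levels in another. The levels below therefore describe that choice and were not tested. The cells came from the human melanoma line WM239A, which is labelled poorly metastatic, and from 3 subclones of it. Of these, 113/6-4L is labelled as having a high potential for lung metastasis, and 131/4-5B1 and 131/4-5B2 as having one for brain metastasis. Each line was 1 library with no replicate, and no treatment is labelled. Cell names end in a suffix from 1 to 4, and no label or name ties a suffix to a line, so the cells are described as barcode sets 1 to 4 and no set carries a line's name.

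TTC39A encodes a protein with tetratricopeptide repeats, short helical repeats that usually bind other proteins. Its own function is little described, and it is known as a gene expressed in oestrogen receptor positive breast cancer cells. PYROXD2 encodes a mitochondrial protein of the pyridine nucleotide-disulphide oxidoreductase family, enzymes that pass electrons between a nicotinamide nucleotide and a bound flavin. Common variants near PYROXD2 are known for their association with methylamine levels in urine. The genes lie on different chromosomes, TTC39A on chromosome 1 and PYROXD2 on chromosome 10.

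The sets held 2121, 1779, 2140 and 2133 cells, 8173 in all, and 71182648 to 71915542 UMIs each. Median UMIs per cell were 41131 in set 2 and 33152.5 to 33556 in the others, so shares of cells are given after each cell was thinned to 10000 UMIs as well as at the deposited depth. Of 8 melanocytic markers, 7 reached a level of 10 CPM (UMIs of a gene scaled to 1e+06 UMIs of the set) in some set, and their summed level was 6946 to 9873 CPM in the 4 sets. Summed immune markers were 0.293 to 1.04 CPM and endothelial markers 1.33 to 2.98 CPM. Epithelial markers summed to 117 to 178 CPM, mostly KRT18. Fibroblast markers summed to 13.9 CPM in set 1, mostly LUM, and to 0.406 to 2.38 CPM in the others. Whether these marker levels bear on either gene was not tested.

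The promoter windows of both genes are shown because the genes shared their order of levels over the sets. Each is the 250 bases before an annotated transcription start, from RefSeq on GRCh38.p14, written 5′ to 3′ on the gene's strand, with every CG dinucleotide in capitals. Both genes matched the RefSeq table. TTC39A has 4 annotated starts there, of which the 2 farthest upstream are shown, and PYROXD2 has 1. The windows lie at chr1:51345117-51345366 (TTC39A start 1), chr1:51330563-51330812 (TTC39A start 2) and chr10:98415183-98415432 (PYROXD2), each on the minus strand.
TTC39A start 1: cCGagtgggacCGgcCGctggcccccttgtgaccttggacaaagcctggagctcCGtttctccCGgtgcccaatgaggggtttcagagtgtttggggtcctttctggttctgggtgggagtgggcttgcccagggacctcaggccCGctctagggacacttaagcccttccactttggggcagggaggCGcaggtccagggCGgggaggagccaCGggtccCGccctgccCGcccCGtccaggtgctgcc
TTC39A start 2: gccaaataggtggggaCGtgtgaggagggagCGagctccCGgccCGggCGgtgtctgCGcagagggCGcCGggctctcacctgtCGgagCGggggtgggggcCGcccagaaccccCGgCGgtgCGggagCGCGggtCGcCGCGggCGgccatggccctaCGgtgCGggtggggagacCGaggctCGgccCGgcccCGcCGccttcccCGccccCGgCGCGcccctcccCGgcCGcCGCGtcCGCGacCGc
PYROXD2: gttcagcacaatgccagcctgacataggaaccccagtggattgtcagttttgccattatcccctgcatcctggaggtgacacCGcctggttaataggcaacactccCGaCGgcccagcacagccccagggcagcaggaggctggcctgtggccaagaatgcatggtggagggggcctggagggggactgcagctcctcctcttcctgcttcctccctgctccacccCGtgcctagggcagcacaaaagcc

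The windows differed in CG content. PYROXD2 had 4 CG dinucleotides in its window and 61.6% G or C, while TTC39A start 1 had 12 and 67.6%. TTC39A start 2 had 38 CG dinucleotides, more than 96.7% of all 34786 windows of this length in the table, whose median was 11. Motifs were searched on both strands, and none of them contains another. The E-box CACGTG occurs in 6.31% of all windows and the M-box core CATGTG in 9.44%. The GC box GGGCGG occurs in 42.6%, the CCAAT box in 32.0% and the TATA box, spelled TATAAA, in 10.8%. The window of PYROXD2 held none of these 5 motifs. TTC39A start 1 held the GC box 3 times and the CCAAT box 1 time, and TTC39A start 2 held the GC box 4 times. TTC39A start 4, at chr1:51297962-51298211 and not printed, held the E-box and the M-box core 1 time each. TTC39A start 3, also not printed, held the CCAAT box 1 time and none of the other motifs. Reads from the 3′ end of transcripts do not show which start was used.

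TTC39A was at 1.23 CPM in set 1 (88 UMIs, 95% interval 0.985 to 1.51), 37.2 CPM in set 2 (35.8 to 38.6), 95.9 CPM in set 3 (93.7 to 98.2) and 76.8 CPM in set 4 (74.8 to 78.9). Set 1 was lowest, set 2 lay between, and the intervals of the 4 sets did not overlap. These are exact Poisson intervals on summed UMIs, and they cover counting error only. The level in set 3 was 78.1 times that in set 1 (63.3 to 97.5) and 2.58 times that in set 2 (2.47 to 2.70). The level in set 2 was itself 30.2 times that in set 1 (24.5 to 37.8). Sets 3 and 4 differed by 1.25 times (1.20 to 1.29). The ratio intervals are exact conditional binomial intervals at 95%.

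PYROXD2 was at 4.31 CPM in set 1 (309 UMIs, 3.85 to 4.82), 62.7 CPM in set 2 (60.9 to 64.6), 229.8 CPM in set 3 (226 to 233) and 217.6 CPM in set 4 (214 to 221). The order of the sets was the same as for TTC39A. Set 3 was at 53.3 times the level of set 1 (47.6 to 59.8) and 3.66 times that of set 2 (3.54 to 3.79). Set 2 was at 14.5 times the level of set 1 (12.95 to 16.4). Sets 3 and 4 were closest, at a ratio of 1.06 (1.03 to 1.08). On the log2(CPM + 1) scale the difference of set 1 from set 3 was -5.44 for both genes. The difference of set 2 from set 3 was -1.34 for TTC39A and -1.86 for PYROXD2, so PYROXD2 was further below set 3 in set 2. Neither gene was without UMIs in set 1.

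**Figure D1:**
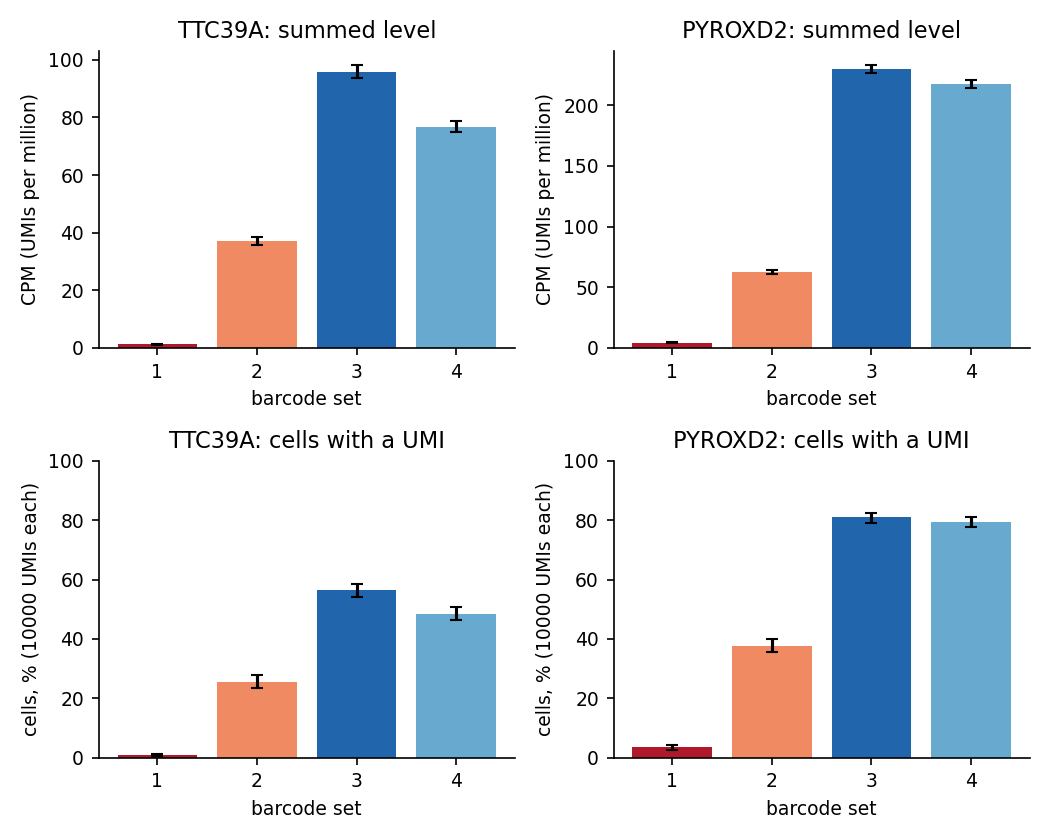
Level of TTC39A and PYROXD2 in barcode sets 1 to 4, in CPM, with exact 95% Poisson intervals. Both genes are lowest in set 1 (1.23 and 4.31 CPM), intermediate in set 2 (37.2 and 62.7 CPM) and highest in set 3 (95.9 and 229.8 CPM).

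A gene was called measured if some set reached 10 CPM, which 7421 genes did. Of these, 2.02% were at least 2-fold lower in set 1 than in set 3, 2.33% at least 2-fold higher and 4.35% either. For set 2 against set 3 the shares were 0.755% lower, 0.997% higher and 1.75% either. Both members were among the genes lower in set 1 and among those lower in set 2, by their choice. Set 1 was at least 2-fold below every other set for 1.05% of genes. The order shown by the pair, with set 1 at least 2-fold below set 2 and set 2 at least 2-fold below both sets 3 and 4, was found for 11 genes, or 0.148%. The other 9 were ARHGAP29, LEPREL1, APOD, CT55, NELL1, CASP1, GTSF1, CCL3 and FBLN1. The median gene differed by 0.08 between sets 1 and 3 and by 0.01 between sets 2 and 3 on the log2(CPM + 1) scale.

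At 10000 UMIs per cell, TTC39A had a UMI in 0.804% of set 1 cells (17 of 2115), 25.6% of set 2, 56.4% of set 3 and 48.5% of set 4. Without thinning, the TTC39A shares were 3.58%, 55.5%, 86.4% and 79.9%. PYROXD2 had a UMI in 3.50% of thinned set 1 cells (74 of 2115), 37.7% of set 2, 80.9% of set 3 and 79.4% of set 4. Its shares at the deposited depth were 11.1%, 71.4%, 94.8% and 94.2%. The shares rose with depth in every set while keeping set 1 lowest and set 2 next. All libraries were melanoma lines, so no cell type that should lack these genes was at hand to measure what free RNA contributes to a share.

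In set 1, the 88 TTC39A UMIs lay in 76 cells at the deposited depth. Of these cells, 66 held 1 UMI, 8 held 2 and 2 held 3. PYROXD2 UMIs lay in 236 set 1 cells, and the 48 cells with 2 or more held 39.2% of them. A Poisson distribution of the same mean puts 3 or more PYROXD2 UMIs in 0.0462% of cells, against 0.754% observed (16 cells), with a maximum of 7 UMIs in a cell. Cells differ in depth, which also widens a distribution, so the comparison was repeated on cells thinned to 20000 UMIs: 0.285% of set 1 cells held 3 or more PYROXD2 UMIs, against a Poisson share of 0.00942%. Set 1 thus held a few cells with more PYROXD2 than an even spread of its UMIs gives. Of 8134 distinct barcodes, 39 occurred in more than 1 set. They included the barcodes of 1 of the 76 TTC39A-positive and 2 of the 236 PYROXD2-positive set 1 cells, and without shared barcodes the set 1 levels were 1.20 and 4.30 CPM.

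**Figure D2:**
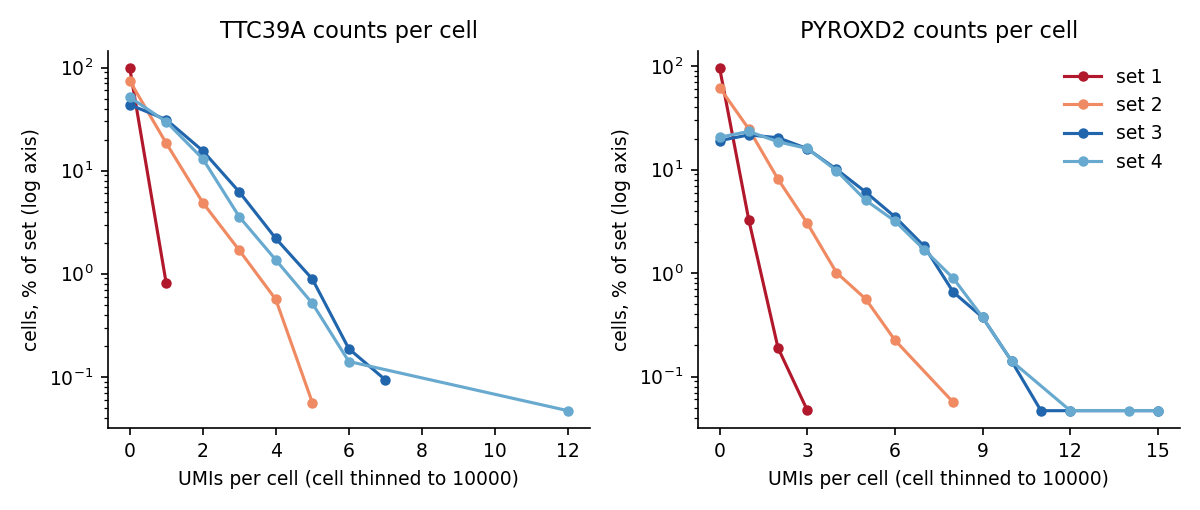
Share of cells (log axis, percent) by UMIs per cell after thinning to 10000 UMIs, for TTC39A and PYROXD2 in each barcode set, with lines passing over counts that no cell held. Cells with 0 UMIs make up 74.4% of set 2 and 43.6% of set 3 for TTC39A, and 62.3% and 19.1% for PYROXD2.

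In the sets where the genes were well detected, counts varied between cells more than for most genes of like mean. For TTC39A at 10000 UMIs, variance over mean was 1.42 in set 2, 1.31 in set 3 and 1.35 in set 4. Only 16 of 1841 other genes of like mean reached the set 2 value, and the median of these genes was 1.03. PYROXD2 had a variance over mean of 1.57 in set 2, 1.64 in set 3 and 1.72 in set 4. In set 2, 15 of 1463 genes of like mean reached its value, beside a median of 1.05. The overdispersion, the variance beyond Poisson relative to the squared mean, was 1.17 for TTC39A in set 2, 0.325 in set 3 and 0.465 in set 4. For PYROXD2 it was 0.966, 0.281 and 0.331. Both genes were thus spread more widely over cells, relative to their mean, in set 2 than in sets 3 and 4.

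Set 2 was set beside a pair of model distributions at 20000 UMIs per cell. One mixes set 1 and set 3 cells to give set 2's mean, as an on-and-off pattern at the levels of those sets would. The other scales every set 3 cell down to that mean, as a graded pattern with set 3's overdispersion would. TTC39A was observed at 0, 1, 2 and 3 or more UMIs in 58.8%, 21.7%, 10.9% and 8.51% of set 2 cells. The mixture, with 38.1% set 3 cells, gave 69.1%, 11.2%, 7.96% and 11.8%, and the scaled model gave 51.0%, 30.9%, 12.5% and 5.72%. The observed TTC39A counts lay between the models in each of the 4 classes. They were somewhat nearer the scaled one, with more cells at 0 than it gives. At 10000 UMIs the share of cells with 2 TTC39A UMIs was 4.893%, below both the scaled model (4.908%) and the mixture (5.726%). PYROXD2 was observed at 44.4%, 26.1%, 13.9% and 15.7%. The mixture, with 25.4% set 3 cells, gave 71.2%, 7.28%, 3.48% and 18.0%, and the scaled model gave 35.9%, 30.7%, 18.4% and 15.0%. PYROXD2 also lay between the models and nearer the scaled one, with more cells at 0 than that model gives. Scaling keeps the overdispersion of set 3, which at 20000 UMIs was 0.326 for TTC39A and 0.309 for PYROXD2. In set 2 it was 1.07 and 1.13. An on-and-off pattern with an on level below that of set 3 was not modelled. Being nearer the scaled model therefore cannot tell a graded pattern from an on-and-off one. The comparison describes these sets and does not name the process behind either shape.

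**Figure D3:**
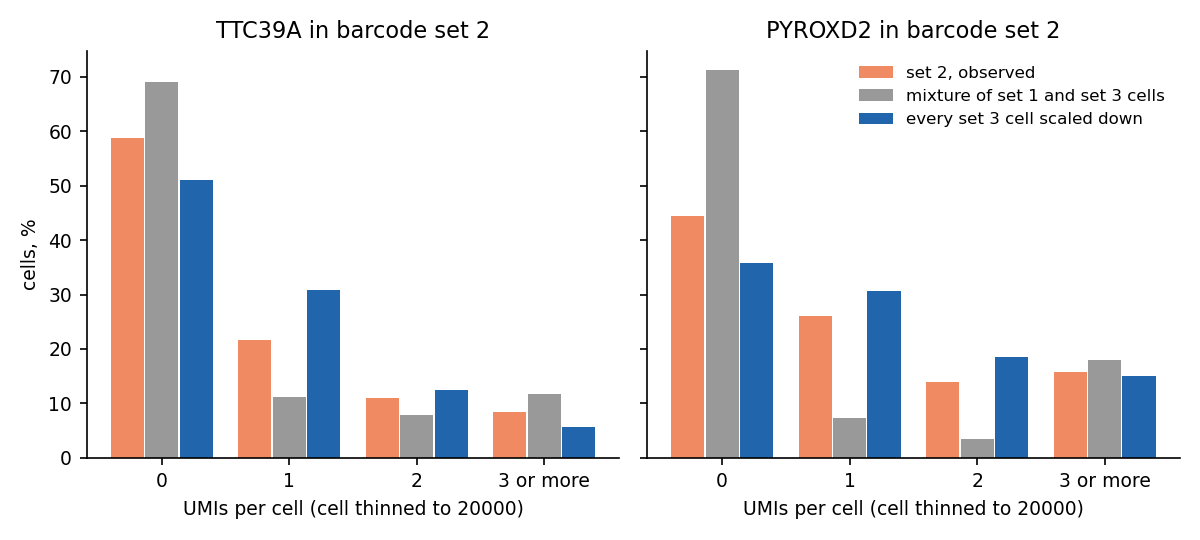
Share of set 2 cells (percent) with 0, 1, 2 and 3 or more UMIs at 20000 UMIs per cell, observed and under both models, for TTC39A and PYROXD2. The observed share of cells with 0 UMIs (58.8% and 44.4%) lies between the mixture (69.1% and 71.2%) and the scaled model (51.0% and 35.9%).

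Both genes followed the same order of sets. The number of cells with both was near the number under independence in sets 2 to 4, which does not show that the genes were independent. At 10000 UMIs, both genes were found in 166 set 2 cells, where independence within the set gives 172.1 (ratio 0.965, 95% interval 0.823 to 1.12). Both were found in 980 set 3 cells against 975.4 (1.005, 0.943 to 1.07) and in 827 set 4 cells against 820.3 (1.01, 0.941 to 1.08). Set 1 had 1 such cell, against 0.595. Each interval contains 1. These are Poisson intervals on the joint count, wider than that count varies once each gene's number of cells is fixed. They therefore cannot decide whether co-detection departs from independence. The ratio could not exceed 1.24 in set 3 or 1.26 in set 4, since both genes were in so many cells there. At 20000 UMIs, both genes were found in 361 set 2 cells against 376.6, in 1312 set 3 cells against 1300.8 and in 1177 set 4 cells against 1163.3. At that depth the ratio could not exceed 1.085 in set 3 or 1.096 in set 4. Shares at 20000 UMIs were less even. TTC39A was found in 78.3% of set 3 cells with PYROXD2 and in 69.7% of those without, and in 70.6% and 61.3% in set 4. In set 2 the shares were 39.5% and 43.3%. In thinned set 3 cells with a TTC39A UMI, PYROXD2 was 1.07 times as high (1.01 to 1.13) as in those without. The ratio was 0.971 (0.841 to 1.12) in set 2 and 1.02 (0.967 to 1.09) in set 4, and both intervals contain 1. These intervals are on UMIs pooled over cells and leave out the spread between cells, so they are too narrow. Whether a wider one in set 3 would contain 1 was not tested. Mean PYROXD2 UMIs at 20000 UMIs were 1.22, 1.15 and 1.48 in set 2 cells with 0, 1 to 2 and 3 or more TTC39A UMIs. The same means were 4.24, 4.53 and 4.86 in set 3, and 4.21, 4.35 and 4.70 in set 4.

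**Figure D4:**
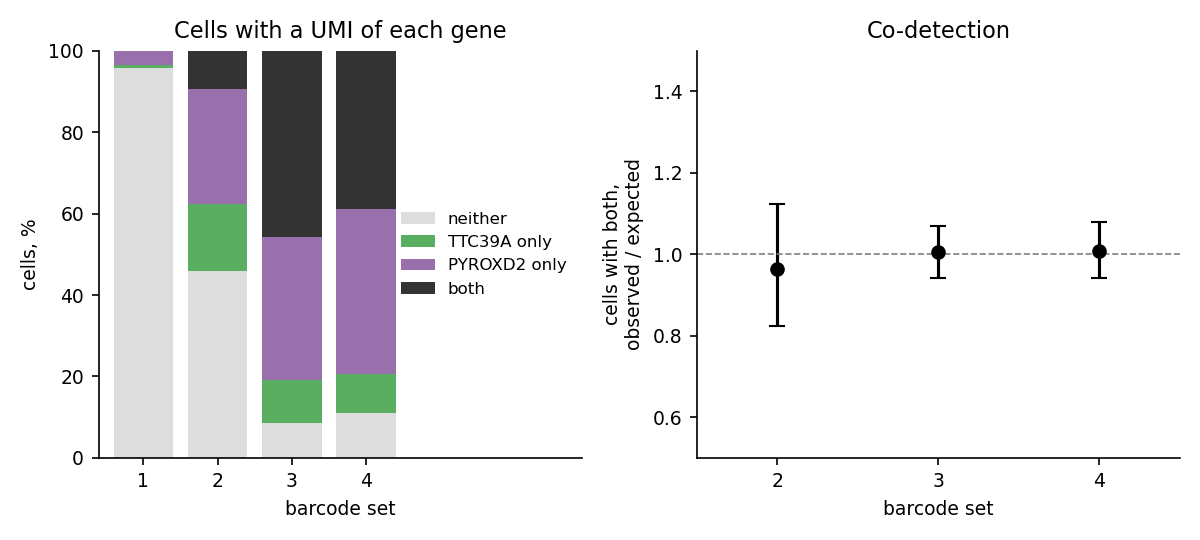
Left, cells of each barcode set (percent, 10000 UMIs per cell) with neither gene, 1 of them or both. Right, cells with both genes, observed over expected under independence, with 95% Poisson intervals on the joint count in sets 2 to 4. The ratios are 0.965, 1.005 and 1.01. Each interval contains 1 but is wide, since it does not hold each gene's number of cells fixed.

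TTC39A was higher in cells assigned to the G2M phase of the cell cycle. In set 2 it was at 28.8 CPM in G1, 36.6 in S and 45.4 in G2M cells, a G2M to G1 ratio of 1.58 (1.42 to 1.76). The ratio was 1.48 (1.39 to 1.58) in set 3 and 1.26 (1.17 to 1.37) in set 4. In set 1 it was 1.496 (0.841 to 2.67), an interval that contains 1. Intervals by phase are on UMIs pooled over cells and leave out the spread between cells. The G2M to G1 ratios of PYROXD2 were smaller, with touching intervals in set 4 alone among sets 2 to 4: 1.08 (0.9996 to 1.17) in set 2, 1.11 (1.07 to 1.16) in set 3 and 1.13 (1.08 to 1.18) in set 4. The difference between sets 2 and 3 was of like size within each phase. Set 3 was above set 2 by 2.76, 2.56 and 2.59 times for TTC39A in G1, S and G2M, and by 3.65, 3.64 and 3.76 times for PYROXD2. Against set 1 the ratios varied more for PYROXD2, at 62.8, 47.5 and 53.0 times, than for TTC39A, at 78.1, 76.6 and 77.3 times. Within 5 classes of cells by their UMIs, set 2 was at 31.5 to 39.9 CPM for TTC39A and 48.1 to 67.9 CPM for PYROXD2, below every such class of set 3 (89.6 to 101.7 and 222.7 to 234.3 CPM).

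The measured close relatives of the genes did not share this pattern. TTC39C was at 7.16, 12.8, 11.0 and 12.2 CPM in sets 1 to 4. TTC39B, at 1.31 to 1.62 CPM, was under the 10 CPM of a measured gene in every set and is too low to show the pattern. PYROXD1, the other member named for the PYROXD domain, was at 10.6, 8.08, 9.76 and 9.10 CPM. Of 29 listed flavin oxidoreductases, 17 were measured, and PYROXD2 alone was over 2-fold lower in set 1, and in set 2, than in set 3. The 3 that were over 2-fold higher in set 1 were NQO1, a quinone reductase, TXNRD1, which reduces thioredoxin, and GSR, which reduces glutathione disulphide. Across all measured genes that share was 2.33%. NQO1 was at 1783, 1070, 878 and 907 CPM, TXNRD1 at 115, 76.7, 52.3 and 55.9 CPM, and GSR at 30.3, 17.2, 13.5 and 13.3 CPM. The 17 flavin genes had a median log2 difference of 0.13 between sets 1 and 3, beside 0.08 over all measured genes. SQLE, with the next widest span of the measured flavin genes, was at 87.7, 66.2, 96.0 and 94.7 CPM.

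In the other lists tied to the pair, no measured gene was over 2-fold apart between sets 1 and 3. Of all measured genes 4.35% were, so counts of 0 in lists this short are near the background. Of 38 other genes named for tetratricopeptide repeats, 9 were measured and 0 passed, with a median log2 difference of -0.08. TTC32 had one of the wider spans, at 10.7, 7.22, 7.26 and 6.94 CPM. Of 18 genes of methylamine and choline metabolism, 4 were measured and 0 passed. They included CHKA, a choline kinase, at 23.6, 24.0, 36.0 and 30.7 CPM, and ALDH7A1, which oxidises betaine aldehyde, at 49.4, 36.8, 42.8 and 43.7 CPM. Of 17 oestrogen receptor and luminal genes, 5 were measured and 0 passed. MLPH, which links melanosomes to their motor, was at 96.5, 80.8, 138.7 and 129.4 CPM, and the keratin KRT8 at 24.97, 24.0, 15.0 and 13.2 CPM. ESR1 itself was at 0.0140 to 0.0698 CPM.

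Genes beside TTC39A and PYROXD2 on their chromosomes kept much smaller differences. Of the 10 nearest measured neighbours of TTC39A, 5 on each side, 0 were over 2-fold apart between sets 1 and 3 (4.35% of all measured genes were), and their median log2 difference was -0.18. RNF11 and EPS15, the nearest on each side, were at 46.4, 44.0, 46.3 and 46.3 CPM and at 20.7, 20.3, 24.5 and 22.9 CPM. OSBPL9 had the widest span, at 52.6, 84.9, 90.8 and 90.8 CPM. Of the 10 neighbours of PYROXD2, 1 was over 2-fold lower in set 1 than in set 3 (2.02% of all measured genes were), and the median was -0.17. That gene was CPN1, a subunit of carboxypeptidase N, at 47.8, 94.5, 149.0 and 152.0 CPM (log2 difference -1.62). HPS1, the nearest on one side and a gene of lysosome-related organelle assembly, was at 67.3, 93.2, 119.9 and 114.6 CPM (-0.82). LOXL4, the nearest on the other side, was at 51.7, 66.4, 37.9 and 35.9 CPM. With 10 neighbours on each side the counts were 0 of 20 and 1 of 20.

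**Figure D5:**
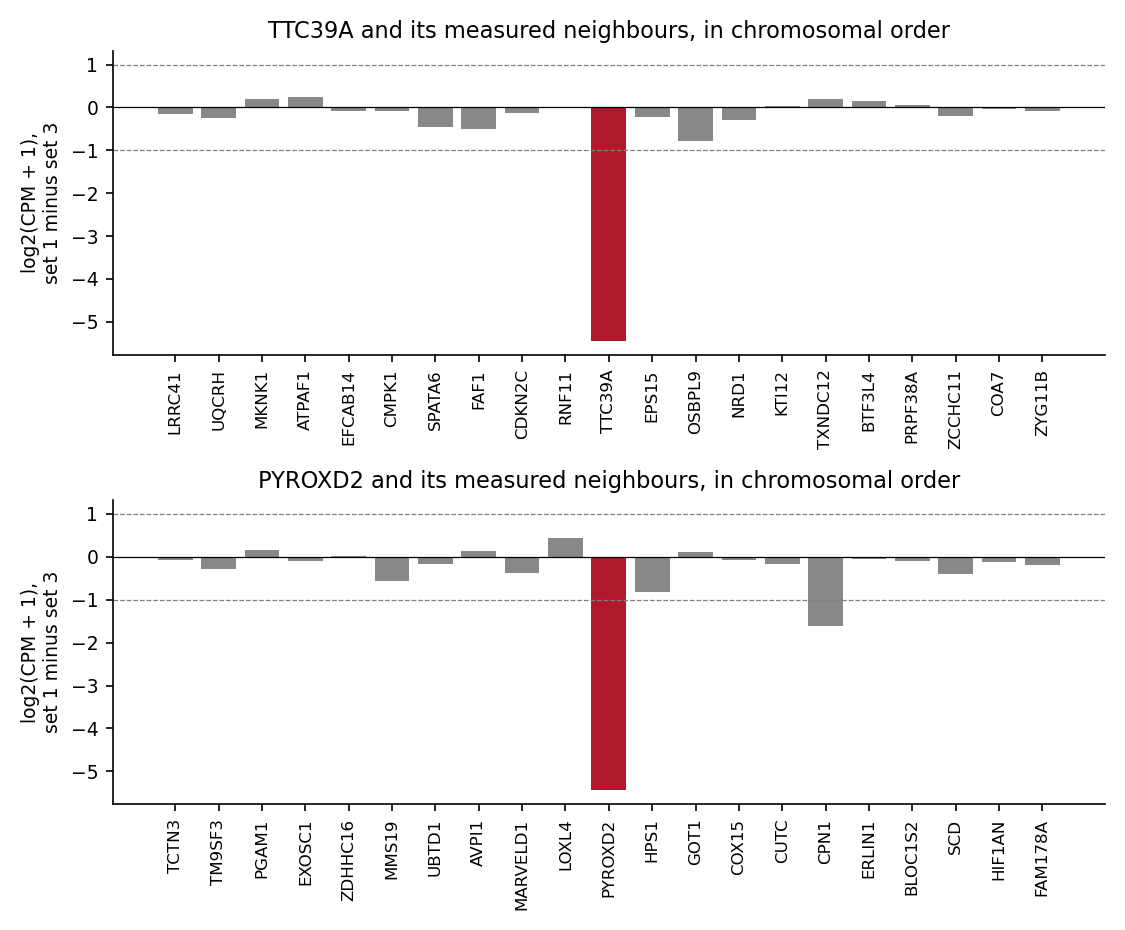
Difference of set 1 from set 3 in log2(CPM + 1) for TTC39A, PYROXD2 and their nearest measured neighbours on each side, in gene order. Both members lie at -5.44, while the neighbour farthest below 0 is CPN1 at -1.62.

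With a pseudocount of 1 CPM, the gene most like each member over the 4 sets was GTSF1, which encodes a factor of the piRNA pathway in germ cells. Likeness was the root mean square difference of log2(CPM + 1) relative to the mean of sets 3 and 4, over 4 sets, which share 1 table. GTSF1 differed by 0.19 from TTC39A and 0.14 from PYROXD2, while the pair differed from each other by 0.33. APOC2 (0.60), CASP1 (0.62) and CDH3 (0.75) were next for TTC39A, and CASP1 (0.66), APOC2 (0.90) and NELL1 (0.91) for PYROXD2. GTSF1 was at 0.0559 CPM in set 1 (4 UMIs), 13.6 in set 2, 44.0 in set 3 and 39.1 in set 4. Its level in set 3 was 788 times that in set 1 (308 to 2895), above the ratio of either member, and the pseudocount hides this. With a pseudocount of 0.1 CPM, GTSF1 differed by 1.04 from TTC39A and 1.20 from PYROXD2 and ranked 11 and 15, while the pair differed by 0.37. The likest gene was then CDH3 for TTC39A (0.20) and TTC39A for PYROXD2.

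Within set 2, GTSF1 was found with TTC39A more often, and with PYROXD2 less often, than independence gives. GTSF1 and TTC39A were found together in 76 cells at 10000 UMIs against 44.4 under independence (ratio 1.71, 1.35 to 2.14). GTSF1 and PYROXD2 were together in 49 cells against 65.3 (0.751, 0.555 to 0.992). In sets 3 and 4 the ratios were 1.04 and 1.01 with TTC39A and 1.03 and 1.03 with PYROXD2. GTSF1 was at 24.6 CPM in set 2 cells with a TTC39A UMI and at 9.98 CPM in those without, a ratio of 2.46 (1.90 to 3.19). With and without a PYROXD2 UMI it was at 9.99 and 15.99 CPM (0.624, 0.464 to 0.832). The cells of a set share 1 library, so these intervals cover counting error within it, and the GTSF1 comparison was added after its values were seen.

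Other correlations within a set were weak. The highest with TTC39A in set 2 over cells were PRDX1, a peroxiredoxin (r = 0.16), and AKR1A1, an aldehyde reductase (0.15), and in set 3 the histone gene H2AFZ (0.16). The highest with PYROXD2 was AKR1A1 in set 3 (0.17), and in set 2 no gene was over 0.1. PRDX1 was at 2160 CPM in set 2 cells with a TTC39A UMI and at 1813 CPM in those without, and at 970 and 886 CPM in set 3. IGFBP5, named after its values were seen, went the other way with TTC39A, with r of -0.19 in set 2, -0.11 in set 3 and -0.13 in set 4. It was at 333 CPM with and 502 without in set 2, 249 and 321 in set 3, and 250.3 and 343 in set 4.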

How the data were processed

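Single-cell libraries were made with a droplet 3′ kit (Chromium, version 2), per the labels' protocols. The submitters' processing notes name Cell Ranger 3.0.0 and Seurat 3.0 and the builds hg19 and mm10, without roles. The authors deposited UMI counts per gene and cell, which were used as deposited; the table of natural log values was not used. Counts were summed per barcode suffix and scaled to CPM. Cells were thinned to 10000 UMIs (20000 as an alternative) with a fixed seed in numpy 2.4.6, which left out 6, 1, 1 and 1 cells of sets 1 to 4. Intervals are exact at 95% (scipy 1.17.1). No doublet caller was run and free RNA was not removed. Phases came from S and G2M gene scores in scanpy 1.11.5. TMM factors came from edgeR 4.0.16. The calculations were tested on simulated data.

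With 1 library per line and no tie of a set to a line, no p-value was computed. Sets were compared on log2(CPM + 1), over genes that reached 10 CPM in some set, with 2-fold as the size named. The members and lists were chosen with earlier results of these data known. Named were the members' families, up to 4 genes of each list with the widest span, the nearest neighbours and up to 3 with the widest span, the 5 genes most like each member, and within sets 2 and 3 up to 5 genes of at least 50 CPM with r over 0.1. Neighbours were taken by gene order in RefSeq (GRCh38.p14), which differs from the builds above, so its coordinates are given only for the promoter windows. The models of set 2 that scale set 3 cells, the GTSF1 comparison by cell and the alternatives on shared barcodes and on the pseudocount of likeness were added after seeing the data. The levels of 1 list of cell type markers are not reported here.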

Additional observations from a re-analysis of the deposited data

How the results depend on the processing

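No paired analysis was possible because no line has a replicate or a replicate number, and none could be left out for the same reason. Of 109 alternative values, 69 stayed close to the value reported, 40 moved and 0 reversed. Close meant within the counting interval or 1.5 times of that value. For medians of chromosomal neighbours it meant within the standard deviation of the neighbours' log2 differences. With a pseudocount of 10 CPM, which shrinks low levels by construction, the log2 differences of sets 1 and 2 from set 3 were -3.24 and -1.17 for TTC39A and -4.07 and -1.72 for PYROXD2. In G1 cells only, TTC39A was at -1.43 in set 2 and PYROXD2 at -5.62 in set 1. Shares of cells moved most with depth. TTC39A had a UMI in 3.58%, 55.5%, 86.4% and 79.9% of the cells of sets 1 to 4 at the deposited depth and in 2.22%, 41.2%, 77.6% and 69.8% at 20000 UMIs, and PYROXD2 in 11.1%, 71.4%, 94.8% and 94.2% and in 7.24%, 55.6%, 92.2% and 91.2%. G1 cells alone gave TTC39A shares of 22.5%, 49.6% and 45.9% in sets 2 to 4 and a PYROXD2 share of 75.7% in set 4, with an overdispersion of 0.840 for TTC39A in set 4 and 1.60 for PYROXD2 in set 1, against 3.64 in all set 1 cells. The cause of the G1 differences was not tested. Genes over 2-fold apart between sets 1 and 3 numbered 705 with no filter on low genes, 95 with at least 50 CPM and 146 with a pseudocount of 10, against 323; between sets 2 and 3 the numbers were 269, 35 and 46, against 130. Leaving mitochondrial and ribosomal protein genes out of the totals raised the median gene by 0.47 to 0.53 in every set and kept both members' differences. The TTC39A overdispersion in set 1 was not described, since no cell thinned to 10000 UMIs there held over 1 UMI; at 20000 it was 9.89, from 4 cells with 2 or more. With a pseudocount of 10 CPM, GTSF1 differed by 0.38 from TTC39A and 0.88 from PYROXD2, the pair differed by 0.58, and the likest genes were CASP1 and TTC39A. With 88 and 309 UMIs in set 1, the per-cell shape of either gene is the least certain there, and library effects cannot be told apart from line effects.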
